A study of Caenorhabditis elegans with 2 samples.

Results

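Basic helix-loop-helix (bHLH) transcription factors were compared between young adult Caenorhabditis elegans fed Lysinibacillus sphaericus and young adult worms fed Escherichia coli OP50. The members are the genes named hlh with a number, other than hlh-30, together with ref-1, lin-32, cnd-1, ngn-1, mml-1, mxl-1, mxl-2, mxl-3, aha-1 and ahr-1. The rule uses gene names only. The gene table holds 34 such genes, and 32 of them had a probe on the array, out of 19804 genes with a named probe.

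Total RNA came from whole worms, which received soil-isolated L. sphaericus or E. coli OP50, the standard laboratory food, from hatching to young adulthood at 20 °C. Each diet was measured on 1 array, a 1-colour Agilent array with Cy3-labelled cRNA, so there are 2 arrays in all and no replicate. No test between the diets was possible, no p-value is given, and every difference describes these 2 RNA samples. The number of worms behind each RNA sample and their strain are not given in the sources used here.

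A bHLH protein binds DNA as a dimer, and most family members act only with the right partner. The E protein HLH-2 is the shared partner of many tissue-restricted members, which set the fates of neurons, glia, muscle and glands, mostly in the embryo and early larva. Other branches work throughout life. The Myc, Mondo and Max network and HLH-30 tie transcription to nutrients. Some bHLH-PAS proteins act in responses to small molecules or oxygen, and the HES-like REF-1 family carries Notch signals.

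Signals are given as scaled signals, in which 100 is the 75th percentile of all probes of the same array. Differences are log2 values of L. sphaericus-fed minus OP50-fed, and a gene is called measured if at least 1 probe passed as well above background on both arrays in the scanner software. The error of a single probe is the scanner's own error estimate for its spots, and for genes with several probes the SD over probes is given. Levels of different probes depend on the probe and were not compared with each other. The sums over marker lists add such levels, so bright probes weigh most in them. The lowest scaled signal well above background was 0.765 in L. sphaericus-fed worms and 1.09 in OP50-fed worms.

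Of the 34 genes, 24 were measured, 2 were well above background only in L. sphaericus-fed worms, 6 on neither array, and 2 had no named probe. Among the 24, 5 were at least 2-fold higher in L. sphaericus-fed worms, 7 were at least 2-fold lower and 12 lay between. In percent, 20.8% of the measured members were higher and 29.2% lower, against 22.1% and 32.6% of the 15298 measured genes. The family thus showed shares close to those of all genes, of which 54.7% differed by at least 2-fold in either direction. The 5 higher genes were hlh-14, hlh-2, ref-1, hlh-3 and lin-32. The 7 lower genes were mxl-3, hlh-12, ahr-1, hlh-33, hlh-11, hlh-6 and hlh-8. Those nearest to the 2-fold line were lin-32 (1.18) and hlh-8 (−1.20) inside it and hlh-13 (−0.99) outside it.

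The balance of higher and lower genes changed with the scaling. The 75th percentile of the processed signal was 3368 for L. sphaericus-fed worms and 1439.6 for OP50-fed worms. Over all measured genes the differences had a median of −0.20. Median scaling moved it up by 0.64, ribosomal protein gene scaling by 0.81 and no scaling by 1.23. With median scaling, 7 members were at least 2-fold higher and 4 lower, against 37.9% and 20.8% of all genes. With differences centred on the median of all genes the counts were again 5 and 7, against 26.9% and 28.7% of all genes. The median of the 24 members lay 0.16 above that of all genes, or 0.066 with hlh-17, hlh-31 and hlh-32 counted as 1 gene. Of the 24 members, 12 kept the sign of their difference in each of the 13 settings that held them (the reported one and 12 alternatives), and 12 turned in at least 1. For a member with 1 probe, changes to the probe filter or probe summary and the deposited table repeat the reported value by construction. A tally of settings is thus no count of independent checks. Several settings also shift all genes by a constant. Relative to the median of all genes, 8 members were above it in each setting that held them, 9 were below it, and 7 were on both sides.

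**Figure D1:**
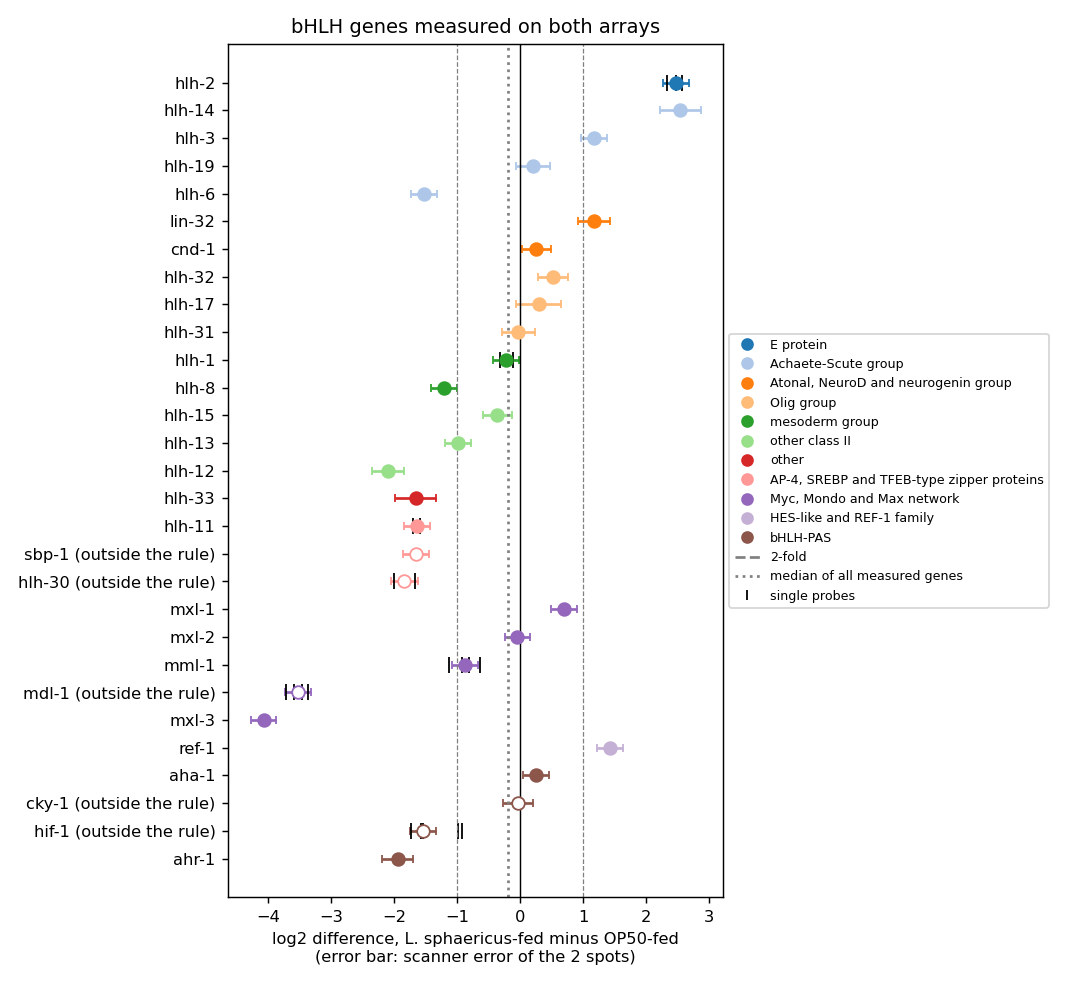
Log2 difference (x axis) of the 24 measured members (filled) and of 5 measured bHLH genes outside the naming rule (open), grouped by branch of the family, with the scanner error as bars and single probes as ticks. The lowest points are mxl-3 at −4.07 and mdl-1 at −3.53, and the highest are hlh-14 at 2.55 and hlh-2 at 2.48.

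hlh-2 encodes the worm's E protein, homologous to Drosophila Daughterless, and was higher in L. sphaericus-fed worms on each of its 3 probes. Their scaled signals were 48.7, 57.2 and 127 in L. sphaericus-fed worms, against 8.17, 10.3 and 25.3 in OP50-fed worms. Each probe was brighter in L. sphaericus-fed worms, but all 3 read the same 2 RNA samples and are no replicates of the diet. The difference was 2.48 ± 0.12 (SD over 3 probes), or 5.57-fold, and 3.18% of the measured genes had a greater difference. It was at least 2-fold under all 13 settings, with a range of 2.08 to 3.70.

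The Achaete-Scute group, proneural partners of HLH-2, went both ways. hlh-14, which acts in embryonic neuron lineages, had a scaled signal of 9.19 in L. sphaericus-fed worms and 1.57 in OP50-fed worms. Its difference of 2.55 ± 0.32 (scanner error, 1 probe), or 5.84-fold, was the highest of the 24 measured members as reported. The OP50-fed value lies near the floor of that array, and with normexp background correction the difference was 0.83, under 2-fold and below that of hlh-2 (2.08). hlh-3, needed for differentiation of the egg-laying HSN neurons, had 24.5 in L. sphaericus-fed worms and 10.8 in OP50-fed worms, a 2.26-fold difference (1.18 ± 0.21). It fell short of 2-fold with normexp (0.77) and with the 75th percentile over detected probes (0.98). hlh-6 stood on the opposite side. This regulator of pharyngeal gland development had 9.56 in L. sphaericus-fed worms and 27.5 in OP50-fed worms, 2.87-fold lower (−1.52 ± 0.21). It was past 2-fold in 8 of 13 settings, and lay at −0.88 with median scaling, −0.71 with ribosomal scaling, −0.93 with quantile normalization, −0.85 with loess centring and −0.30 without scaling. hlh-19 had 2.71 and 2.35 in L. sphaericus-fed and OP50-fed worms, a difference of 0.21 ± 0.27 that is smaller than its scanner error. hlh-4, known for the identity of the ADL sensory neurons, was not well above background on either array.

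Among the Atonal, NeuroD and neurogenin relatives, the Atonal homolog lin-32, required for touch receptor and male ray neurons, had 5.75 in L. sphaericus-fed worms and 2.55 in OP50-fed worms. This is 2.26-fold higher (1.18 ± 0.25), but the difference was 0.09 with normexp and 0.98 with the 75th percentile over detected probes. The NeuroD homolog cnd-1, which acts in embryonic motor neuron precursors, had 5.63 and 4.70 in L. sphaericus-fed and OP50-fed worms, a difference of 0.26 ± 0.23. The neurogenin gene ngn-1 was well above background only in L. sphaericus-fed worms. With 3.03 on that array against the OP50-fed floor of 1.09, it was at least 2.78-fold higher. A bound of this kind is taken against the lowest signal well above background on the dim array, or the probe's own signal if that is higher. It applies to the reported scaling and background correction only. It is no strict limit, since hlh-10 read 1.69 in OP50-fed worms and was still not well above background.

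The Olig group had the narrowest range of differences among the branches with at least 2 measured members. hlh-17, hlh-31 and hlh-32 have nearly identical coding sequences, and hlh-17 is known as a gene of the cephalic sheath glia. Their scaled signals were 1.94, 2.69 and 4.05 in L. sphaericus-fed worms, against 1.58, 2.74 and 2.82 in OP50-fed worms. The differences were 0.30 ± 0.36, −0.02 ± 0.27 and 0.52 ± 0.24, all under 2-fold. With normexp they were −0.66, −0.82 and −0.25. The OP50-fed values of these genes are low, against a floor of 1.09 on that array. The probes may not tell these genes apart, so they are not independent values. Another probe of hlh-31, and the probe of hlh-16, a gene of this group that acts in the AIY neuron lineage, were not well above background on either array.

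In the mesoderm branch, hlh-1, the MyoD homolog of body wall muscle, had scaled signals of 18.6 and 43.0 in L. sphaericus-fed worms, against 23.3 and 46.5 in OP50-fed worms, on its 2 probes. Its difference of −0.22 ± 0.15 (SD over 2 probes) lay at the median of all genes, with 49.6% of the measured genes lower. The Twist homolog hlh-8, which patterns sex muscles and enteric muscles, had 7.45 in L. sphaericus-fed worms and 17.2 in OP50-fed worms, 2.30-fold lower (−1.20 ± 0.21). It was past 2-fold in 7 of 12 settings, and without scaling its difference was 0.02.

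hlh-12, hlh-13 and hlh-15, the other measured members of the tissue-restricted class, and hlh-33 all had negative differences, of which those of hlh-12 and hlh-33 kept their sign in every setting. hlh-12, which works with HLH-2 in the migrating distal tip cells of the gonad, had 1.53 in L. sphaericus-fed worms and 6.56 in OP50-fed worms, 4.28-fold lower (−2.10 ± 0.26). hlh-33 had 1.27 in L. sphaericus-fed worms and 4.02 in OP50-fed worms, 3.16-fold lower (−1.66 ± 0.33). hlh-12 was past 2-fold in 11 of 12 settings and hlh-33 in 9 of 12. Both L. sphaericus-fed values are low, against a floor of 0.765. The Ptf1a relative hlh-13 had 7.52 and 14.9 in L. sphaericus-fed and OP50-fed worms, a difference of −0.99 ± 0.21. hlh-15, related to the mammalian NHLH factors, had 4.03 and 5.17, a difference of −0.36 ± 0.23. hlh-10 was not well above background on either array.

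**Figure D2:**
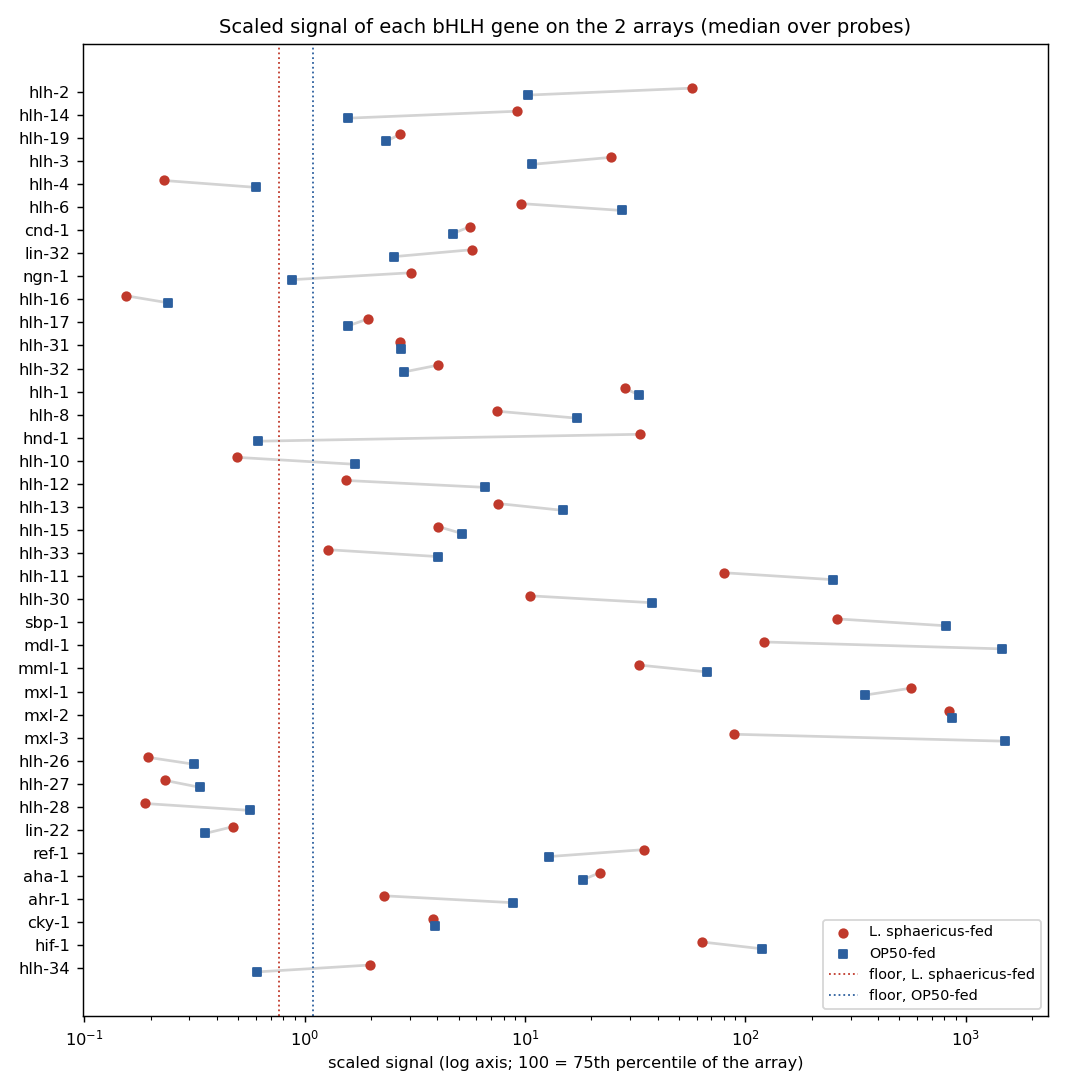
Scaled signal (log x axis, 100 is the 75th percentile of the array) of each bHLH gene with a named probe in L. sphaericus-fed worms (red circles) and OP50-fed worms (blue squares), as medians over probes, with the lowest signal well above background on each array as a dotted line. mxl-3 and mdl-1 have the widest gaps among genes measured on both arrays, and hlh-26, hlh-27 and hlh-28 lie left of both dotted lines.

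The Myc, Mondo and Max network held the largest difference among the members measured on both arrays and also some of the smallest. mxl-3, a Max-like factor known to repress lysosomal lipase genes in fed worms, had a scaled signal of 88.9 in L. sphaericus-fed worms and 1498 in OP50-fed worms. It was 16.9-fold lower (−4.07 ± 0.20, 1 probe), and 1.07% of the measured genes were lower still. Over the 13 settings its difference ranged from −4.34 to −2.85. The Mad homolog mdl-1, which lies outside the naming rule, was lower to a like extent on 4 of 4 probes, with 93.8 to 247 in L. sphaericus-fed worms against 969 to 2990 in OP50-fed worms. Its difference was −3.53 ± 0.16 (SD over 4 probes), or 11.5-fold.

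The other measured members of the Myc, Mondo and Max network differed far less. mxl-1 encodes the Max that pairs with MDL-1, and had 566 in L. sphaericus-fed worms and 349.8 in OP50-fed worms, a difference of 0.69 ± 0.20. mml-1 encodes the Mondo-like protein and mxl-2 its Max-like partner. The 4 probes of mml-1 had 12.04 to 269 in L. sphaericus-fed worms and 18.7 to 475 in OP50-fed worms, and each was lower, from −1.13 to −0.64 (−0.87 ± 0.21, SD over 4 probes). This sign turned without scaling. mxl-2 had 843 and 868 in L. sphaericus-fed and OP50-fed worms, a difference of −0.04 ± 0.20.

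The AP-4 homolog hlh-11, known to act on fat metabolism, had 79.8 and 80.3 in L. sphaericus-fed worms against 258 and 240.3 in OP50-fed worms, on its 2 probes. It was 3.11-fold lower (−1.64 ± 0.08, SD over 2 probes), and past 2-fold in 10 of 13 settings. Other bHLH zipper regulators of lipid and lysosome genes, outside the naming rule, were lower by a like amount. The TFEB homolog hlh-30 had 2.65 and 41.8 in L. sphaericus-fed worms against 10.7 and 133 in OP50-fed worms, a difference of −1.84 ± 0.24 (SD over 2 probes). The SREBP homolog sbp-1 had 260 in L. sphaericus-fed worms and 817 in OP50-fed worms, a difference of −1.65 ± 0.20. These 3 genes kept a negative sign under all 13 settings.

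In the HES-like branch, ref-1, a target of Notch signalling in the embryo, had 34.7 in L. sphaericus-fed worms and 12.9 in OP50-fed worms. It was 2.70-fold higher (1.43 ± 0.21) and at least 2-fold higher under all 13 settings. Its relatives hlh-26, hlh-27 and hlh-28 were not well above background on either array, on 1, 2 and 2 probes. hlh-25 and hlh-29 had no named probe. The Hairy-related gene lin-22, outside the rule, was well above background on 1 of 3 probes in OP50-fed worms and on none in L. sphaericus-fed worms. That probe was at least 9.26-fold lower in L. sphaericus-fed worms.

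Among the bHLH-PAS genes, the aryl hydrocarbon receptor homolog ahr-1 was lower and its partner aha-1, the ARNT homolog, was not. ahr-1 had 2.29 in L. sphaericus-fed worms and 8.79 in OP50-fed worms, 3.84-fold lower (−1.94 ± 0.25), and past 2-fold in 11 of 12 settings. aha-1 had 21.9 in L. sphaericus-fed worms and 18.3 in OP50-fed worms, a difference of 0.25 ± 0.21. hif-1, the hypoxia-inducible factor that also pairs with AHA-1, had scaled signals of 3.88 to 164 in L. sphaericus-fed worms and 12.8 to 475 in OP50-fed worms, with a negative difference on 5 of 5 probes (−1.54 ± 0.37, SD over 5 probes). hlh-34 was well above background only in L. sphaericus-fed worms, with 1.99 there, at least 1.82-fold higher. For cky-1 the measured probe was at −0.03 ± 0.23, while its other 2 probes were well above background only in L. sphaericus-fed worms.

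Of the 7 bHLH genes outside the naming rule, 5 were measured. Of these, 4 passed 2-fold downwards and 0 upwards, against 32.6% and 22.1% of all genes. Median scaling left 3 and 0, against 20.8% and 37.9% of all genes. hif-1, counted as lower, was past 2-fold in 8 of 13 settings, and its probes ran from −1.72 to −0.92. The HAND homolog hnd-1, which acts in embryonic mesoderm and gonad precursors, was well above background only in L. sphaericus-fed worms. It had 33.2 there, at least 30.5-fold higher than the floor of the OP50-fed array.

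Set beside other classes of transcription factor, the members were spread on both sides of all genes. Of 50 measured ceh homeobox genes, 16 passed 2-fold upwards and 11 downwards, with a median 0.56 above that of all genes. Of 208 nhr nuclear receptor genes, 3 passed it upwards and 118 downwards, with a median 0.91 below it. With median scaling these counts were 25 and 5 for ceh genes and 10 and 52 for nhr genes. With 1 array a diet, whether these classes differ from the bHLH genes was not tested. By chromosome, 2 of 6 measured X-linked members were at least 2-fold lower and 1 higher, against 5 lower and 4 higher of 18 on autosomes. Over all genes, 31.97% of those on X and 32.7% of those on autosomes were lower, and 14.5% and 23.3% higher.

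**Figure D3:**
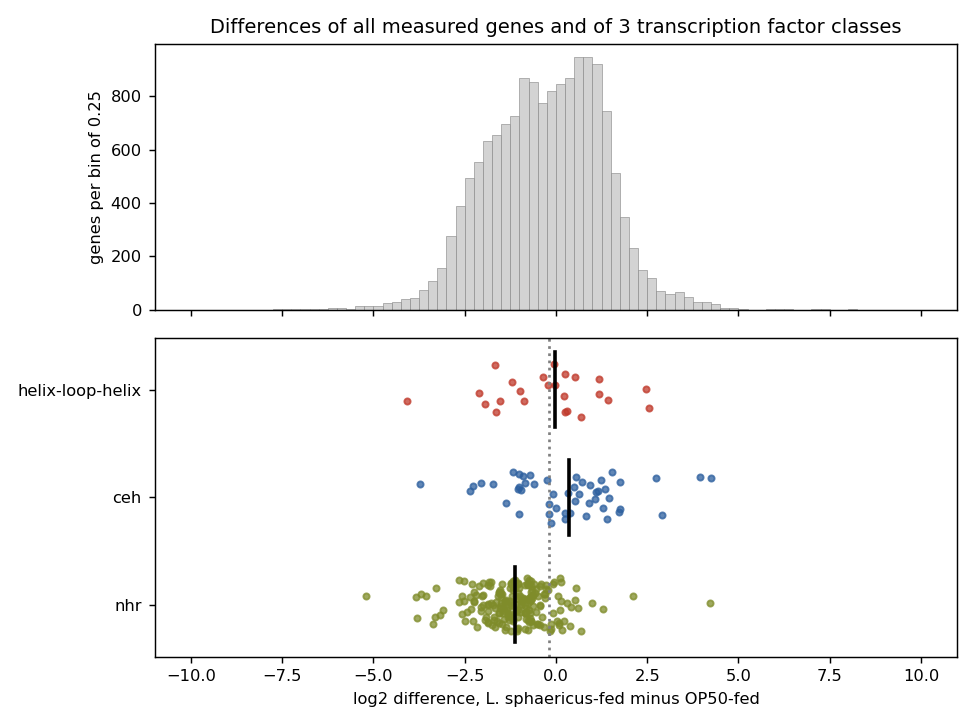
Number of genes per bin of log2 difference for all measured genes (upper panel), and the differences of the 24 measured bHLH members, 50 ceh genes and 208 nhr genes (lower panel, 1 point a gene, black bars at the medians, dotted line at the median of all genes). The bHLH points run from −4.07 to 2.55 with a median of −0.03.

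Genes linked to single members were examined next, from lists drawn up from background knowledge but with earlier results of these data known. The counts are thus descriptions and no independent check. The counts past 2-fold below stand beside 32.6% of all genes lower and 22.1% higher, or 20.8% and 37.9% with median scaling. MXL-3 restrains lysosomal lipase genes and HLH-30 activates them. Of the 5 genes lipl-1 to lipl-5, 4 were at least 2-fold lower in L. sphaericus-fed worms and 0 higher, with a median 3.50 below all genes. With median scaling 4 were lower and 1 higher. lipl-3 had 6.61 in L. sphaericus-fed worms and 2602 in OP50-fed worms (−8.62 ± 0.21), and lipl-1 had 120 and 1781 (−3.90 ± 0.20). The remaining lipase gene of the 5 had a positive difference of 0.41, while mxl-3 and hlh-30 were on the side of the other 4. The lipase gene atgl-1, a known target of HLH-11, had a positive difference of 0.76 ± 0.21 (SD over 3 probes). This was under 2-fold as reported but past it with median scaling (1.40).

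AHR-1 acts in the URX oxygen-sensing neurons, where soluble guanylyl cyclase genes are expressed. Among 4 measured genes, 3 passed 2-fold downwards and 0 upwards, with gcy-32 at −3.13 ± 0.21 and gcy-36 at −2.58 ± 0.21. Of 9 touch receptor neuron genes, downstream of LIN-32 and HLH-2, 6 passed 2-fold downwards and 0 upwards, or 3 and 0 with median scaling. Over all genes, 32.6% were lower, or 20.8% with median scaling. The channel gene mec-4 had 7.79 in L. sphaericus-fed worms and 35.7 in OP50-fed worms (−2.20 ± 0.21). The homeobox gene mec-3 was 3.99-fold lower (SD 0.24 on the log2 scale over 4 probes). lin-32 and hlh-2 were on the higher side and these genes on the lower side. Of 6 genes listed for the ADL neurons, 2 were measured and both were lower. ver-2 was at −2.31 ± 0.02 (SD over 3 probes) and mef-2 at −1.84 ± 0.85 (SD over 2 probes). Whether either lies downstream of a member was not examined.

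Of the 7 pharyngeal gland genes linked to HLH-6, 2 were at least 2-fold lower and 2 higher, or 2 and 4 with median scaling. phat-6 and phat-3 were at −2.70 ± 0.20 and −2.54 ± 0.20, and phat-4 and phat-5 at 1.24 ± 0.20 and 1.09 ± 0.09 (SD over 5 probes). The list thus had genes on both sides, while hlh-6 itself was lower. Among the HLH-8 targets, mls-1 was at −2.32 ± 0.22 and the FGF receptor gene egl-15 at −1.65 ± 0.18 (SD over 8 probes), on the same side as hlh-8. The other 2 listed targets were not measured on both arrays, 1 being above background only in L. sphaericus-fed worms. Of 14 muscle genes downstream of HLH-1, 11 lay within 2-fold, with a median 0.36 below all genes. With median scaling 2 were at least 2-fold higher and 0 lower. dim-1 was at 1.25 ± 0.22 (SD over 6 probes), while mlc-3 was at −1.22 ± 0.21 (SD over 6 probes) and mlc-2 at −1.10 ± 0.20.

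Of 7 Notch pathway genes, which act upstream of the REF-1 family, 3 were at least 2-fold higher and 1 lower. With median scaling the counts were 5 and 0. Over all genes, 22.1% were higher and 32.6% lower, or 37.9% and 20.8% with median scaling. The receptor gene glp-1 had 105 in L. sphaericus-fed worms and 26.9 in OP50-fed worms (1.97 ± 0.20). The Notch transcription factor gene lag-1 was at 1.42 ± 0.20 (SD over 3 probes), and the receptor gene lin-12 was at −1.02 ± 0.20. ref-1 was on the same side as glp-1 and lag-1. glp-1 is also among the germline markers given below, so its value counts in both lists.

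**Figure D4:**
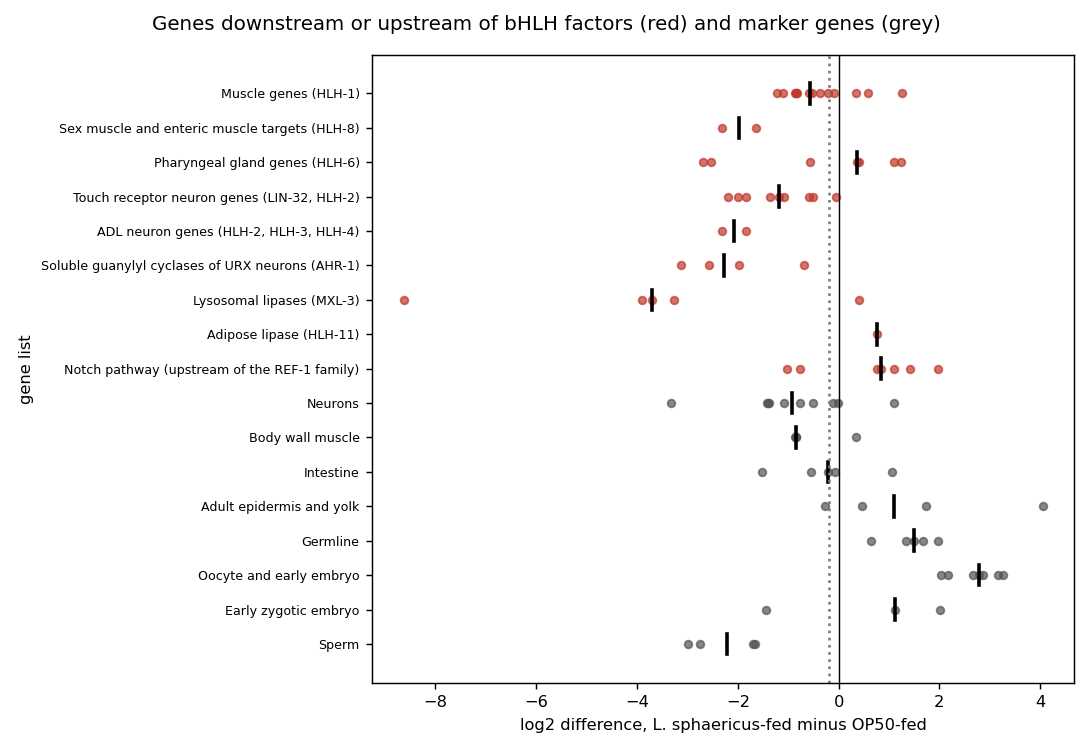
Log2 difference (x axis) of each measured gene in the lists tied to single bHLH factors (red) and in the cell type marker lists (grey), with a black bar at each median and a dotted line at the median of all genes. The lysosomal lipases reach −8.62, and the 7 oocyte and early embryo genes all lie above 2.

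Markers of whole tissues moved between the arrays as well. Oocyte and early embryo genes were at least 2-fold higher in L. sphaericus-fed worms in 7 of 7 cases and germline genes in 4 of 5, with medians 2.99 and 1.69 above all genes. Of the genes listed as early zygotic, pal-1 (2.01) and end-3 (1.12) were higher and med-2 (−1.45) was lower. These 3 had no common direction, and 4 others were well above background on 1 array only. Sperm genes were lower in 4 of 4 cases and neuron genes in 5 of 10 with 1 higher (1 of 10 lower with median scaling), with medians 2.03 and 0.74 below all genes. The summed scaled signal of the oocyte and early embryo list was 7937 in L. sphaericus-fed worms and 1127 in OP50-fed worms, that of the germline list 3756 and 1987, that of the early zygotic list 407 and 108, that of the sperm list 42.9 and 286, and that of the neuron list 2318 and 3225. Body wall muscle genes lay within 2-fold in 4 of 4 cases and intestine genes in 3 of 5. All of these body wall muscle genes are also in the HLH-1 list, so the 2 lists are not separate evidence. Adult epidermis and yolk genes were higher in 2 of 4 cases and within 2-fold in the others, and the sums of these 3 lists were 3888 and 4558, 4322 and 4117, and 9486 and 5456. Single genes carried much of some sums, and those named here were picked after their values were seen. Without pal-1 the early zygotic sum was 14.5 in L. sphaericus-fed worms and 9.995 in OP50-fed worms, and both values include signals not well above background. Without egl-3 the neuron sum was 2239 and 2431. Without spe-4 the sperm sum was 12.6 and 44.0, and without act-5 the intestine sum turned to 2579 and 3278. Without unc-27 the body wall muscle sum was 1456 and 2651, and without vit-2 the epidermis and yolk sum 3578 and 1172. Without glh-1 the germline sum was 1376 and 460, and without cbd-1 the oocyte and early embryo sum 4463 and 627. In RNA from whole worms, fewer cells of a type and less RNA per cell cannot be told apart, and the part of these shifts in the bHLH differences was not tested.

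**Figure D5:**
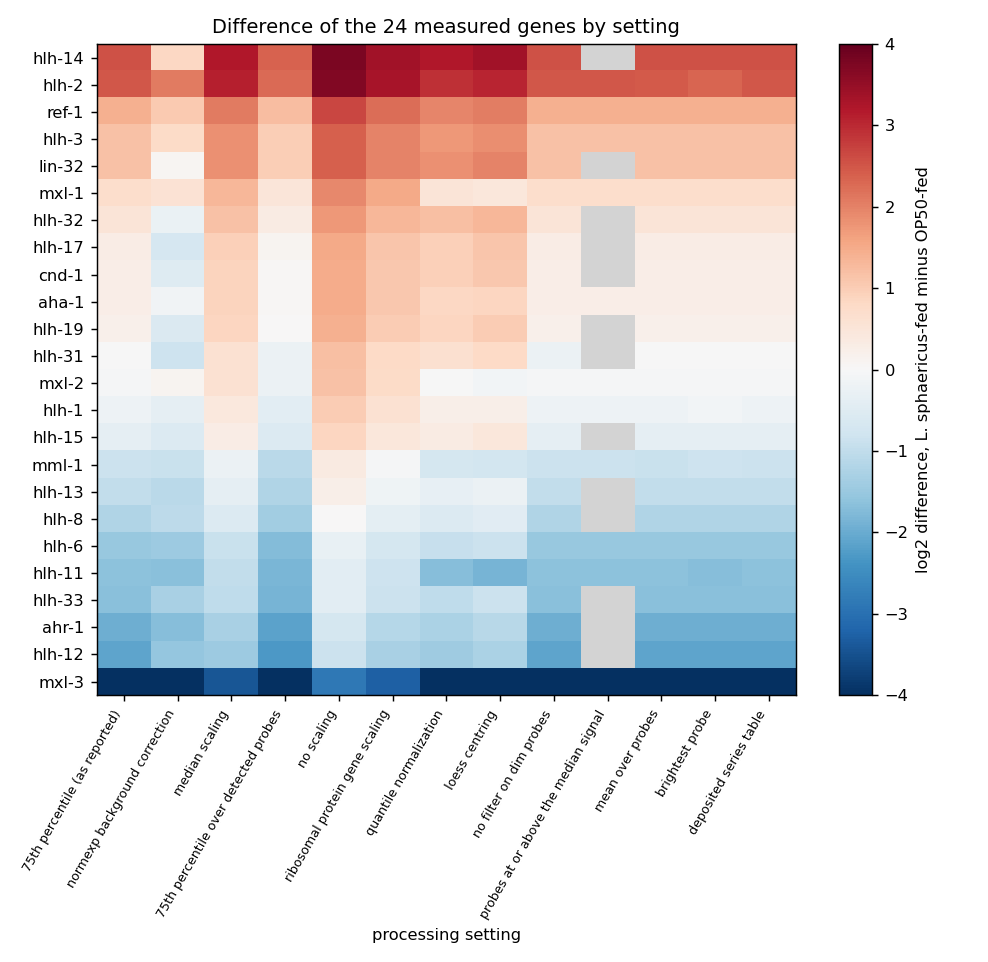
Log2 difference (colour, from −4 to 4) of the 24 measured members (rows) under the reported setting and 12 alternatives (columns); grey marks members left out by the filter on bright probes. hlh-14, hlh-2, ref-1, hlh-3, lin-32 and mxl-1 stay above 0 in every column that holds them, and mxl-3, hlh-12, ahr-1, hlh-33, hlh-11 and hlh-6 stay below 0.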

How the data were processed

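Per the file headers, both arrays sat on 1 slide, scanned once and processed in Agilent Feature Extraction (version 11.0.1.1). The authors deposited the scanner's background-subtracted intensity of each spot on a linear scale, with error estimates and quality flags from the software. The deposited series table holds the same intensity per probe, within 0.01 log2 units for 43562 and 43559 of 43579 probes on the L. sphaericus-fed and OP50-fed arrays. Of 43803 non-control spots, 33080 (75.5%) on the L. sphaericus-fed array and 33343 (76.1%) on the OP50-fed array were well above background, with median processed signals of 367 and 245. The number of arrays limits the precision.

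Outlier spots (36) were left out, the log2 processed signal was averaged over repeated spots, and the 75th percentile of 43579 probes was subtracted per array. Per gene, the median difference of its measured probes was taken. The SD of the difference over repeated spots was 0.15 (33 probes), and between probes of a gene the median SD was 0.18 (2761 genes). Names came from a RefSeq table of assembly WBcel235, which named 34295 probes. Positions are left out because the design refers to an earlier genome build.

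Every member and all 7 listed bHLH genes outside the naming rule were named. From each list of downstream or upstream genes, names were limited to the 2 highest and 2 lowest differences past 2-fold, or, failing any, the 2 brightest genes. Members and lists were chosen with earlier results of these data known. Alternatives were normexp (limma 3.58.1, offset 50, on median signals since the files hold no mean signal), other scalings, loess (statsmodels 0.14.6, span 0.3), filters, probe summaries and thresholds. The scalings were tested on simulated arrays with known differences in a small share of genes, as many up as down. That cannot tell which scaling suits these data. Normexp and the other filters, probe summaries and thresholds were not simulated.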

Additional observations from a re-analysis of the deposited data

How the results depend on the processing

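Of the alternatives, those on normexp, near-identical genes and centring on the median of all genes were added after the data were seen. The count of bHLH members at least 2-fold higher, 5 of 24 as reported, was 2 with normexp, 3 with the 75th percentile over detected probes, 14 with no scaling, 11 with ribosomal scaling, 9 with loess centring, 3 of 11 with bright probes only, 2 at 3-fold and 1 of 4 where at least 2 probes had to pass. The count lower, 7 as reported, was 4 with median scaling, 1 with no scaling, 3 with ribosomal scaling, 4 with loess centring, 3 of 11 with bright probes only and 1 of 4 where at least 2 probes had to pass. The median relative to all genes, 0.16 as reported, was −0.21 with normexp, 0.34 with quantile normalization, 0.36 with loess centring and −0.094 with bright probes only. Of all 15298 measured genes, 3381 were higher and 4986 lower as reported, and 7747 and 1770 with no scaling. The counts were 6368 and 2740 with ribosomal scaling, 3850 and 3786 with loess centring, and 2861 and 5041 with normexp. They were 2632 and 5689 with the 75th percentile over detected probes, and 5796 and 3177 with median scaling. With bright probes only, 2907 and 3287 of 11655 genes were higher and lower. A scaling by a constant shifts all genes together by construction, and the cause of the other moves was not tested. Without scaling the differences of hlh-8, mlc-3, mlc-2 and lin-12 turned to 0.022, 0.0027, 0.13 and 0.20. No paired analysis was possible because each diet has 1 array. The members under the lowest signal well above background cannot be ordered between the diets.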
